A study of Rattus norvegicus with 8 samples.

Results

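Genes that carry iron into, through and out of colon cells, and that break down heme, were compared between rats fed quercetin and rats fed a control diet. The set was a list of 10 genes, namely Tfrc, Slc11a2, Cybrd1, Fth1, Ftl1, Slc40a1, Heph, Hmox1, Ireb2 and Aco1, and a gene counted as measured where the array annotation gave at least 1 probe set that symbol alone. By that rule 8 of the 10 genes were found, on 12 probe sets, out of 14217 genes so named and 31042 probe sets in all. The ferritin genes Fth1 and Ftl1 were not found, because each occurs in the annotation only on a probe set that also lists other genes. The tissue was scraped mucosa of the rat distal colon, rinsed in cold ethanol, and its total RNA was hybridised to 1 Affymetrix array per sample. The 4 control samples came from rats on a standard rat breeder diet and the 4 quercetin samples from rats given 10 g of quercetin, a plant flavonol, per kg of diet, each for 11 weeks. The sources used here do not give the strain, sex or age of the rats. Nothing states that each sample is a separate rat, so the p-values rest on the spread among the 8 samples, which may be technical.

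Cells of the gut take up iron both from the lumen and from the blood. At the lumen the reductase Cybrd1 converts ferric to ferrous iron, which the transporter Slc11a2 (DMT1) takes up, while the transferrin receptor Tfrc takes up iron bound to transferrin from the blood side and is prominent on dividing crypt cells. Ferritin, built from the Fth1 and Ftl1 chains, stores iron in the cytosol, and Slc40a1 (ferroportin) exports it with the help of the ferroxidase Heph. Heme oxygenase 1, the product of Hmox1, opens the heme ring and sets its iron free. The iron regulatory proteins encoded by Aco1 (IRP1) and Ireb2 (IRP2) bind stem-loops in the messages of Tfrc, the ferritins, Slc11a2 and Slc40a1, and stabilise or silence those messages when iron is low. This control acts largely on message stability, translation and protein decay, so a transcript level is not a protein level. Quercetin can bind iron.

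To show the start region of the member with the largest difference, and of a member whose message level is a usual readout of cell iron, stretches just before the RefSeq start sites are printed here in GRCr8, the build of the sequence table, 5′ to 3′ on the strand of the gene. Capitals mark ACGTG, a form of the core that hypoxia-inducible factors bind, and a stretch wholly in lower case holds no match. Other forms of that core were not searched for. The Ireb2 stretch is chr8:64160968-64161087 on the plus strand, and the Tfrc stretch is chr11:81690319-81690378 on the minus strand.
Ireb2: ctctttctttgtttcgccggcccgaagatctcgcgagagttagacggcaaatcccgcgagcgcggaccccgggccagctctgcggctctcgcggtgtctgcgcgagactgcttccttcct
Tfrc: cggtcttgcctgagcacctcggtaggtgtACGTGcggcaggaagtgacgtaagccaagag
Windows of 300 bases (250 before and 50 after a start) were listed for 7 of the 10 genes, with 8 windows because Slc11a2 has 2 starts. On either strand ACGTG, which also lies inside the E-box CACGTG, occurred in 1 of the 8 windows, that of Tfrc, and in 19.3% of all 33469 windows of the table. In Tfrc it began at position -31, counted back from the start. The antioxidant motif TGACNNNGC occurred in 0 of the 8 and in 12.1% of all windows. Fth1, Ftl1 and Hmox1 had no window listed, so neither motif was searched for in them. These matches describe letters in a window and say nothing of binding.

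Signals summed over 8 epithelial markers ranged from 82934 to 90092 in controls and from 76361 to 84696 after quercetin. Markers of other cell types were also read, without a test of which cells their signal came from. Sums over 9 smooth muscle markers were 1732 to 3334 in controls and 1699.7 to 2075 after quercetin, mostly from the bright probe set of Mylk. Of the 9 markers 5 were above the filter, while Tagln, Cnn1, Actg2 and Myl9 were below it. Of 12 macrophage markers 6 were above it, led by Cd14, while 6, among them Cd68 and Cd163, were below. Control array 2 stood apart. Its mean correlation with the other arrays was 0.927 against 0.941 to 0.955 for the others. Its GAPDH 3' to 5' signal ratio, which rises with shortened RNA, was 3.79 against 1.58 to 2.36. The beta-actin ratio was 8.65, 21.4, 10.2 and 12.4 on control arrays 1 to 4 and 6.79 to 9.12 after quercetin. That ratio was thus higher on control arrays 2, 3 and 4 than on any quercetin array. Its part in the differences between the diets was not tested. Control array 2 was the lowest control array for 5 of the 8 measured iron genes, and control array 1 was the highest control array for 5 of 8. In bulk tissue, fewer cells of a type and less RNA per cell cannot be told apart.

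None of the 8 genes passed the threshold, an adjusted p of 0.05 in limma over 18625 probe sets, of which 0.0107% passed. Differences are given as quercetin minus control on the scale of log2(signal + 16), for the brightest probe set of each gene unless another is named. All 8 genes were bright enough to be tested. The quercetin mean was higher for 5 and lower for 3, as it was higher for 55.9% of the 10266 named genes tested and for 51.3% of all probe sets tested. The median difference was 0.05, beside 0.04 over the named genes and 0.01 over all probe sets. Both rested on single arrays: the number higher was 7 without control array 1, 3 without control array 2 and 4 without quercetin array 3 or 4, and the median was -0.01 without control array 2 or quercetin array 4. The median size of the difference, regardless of sign, was 0.12 in the 8 genes and 0.17 in the named genes. At an unadjusted p under 0.05 there was 1 of 8, Ireb2, where 9.39% of named genes had such a p. The groups did not overlap in 1 of 8, again Ireb2 and on the higher side, against 5.84% of named genes in either direction and 3.77% on the higher side. Over the 12 probe sets, 2 had an unadjusted p under 0.05 and the same 2 had groups that did not overlap, against 10.8% and 6.39% of all probe sets tested. With 1 of 8 and 2 of 12, these counts are too small to be set apart from the background.

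**Figure D1:**
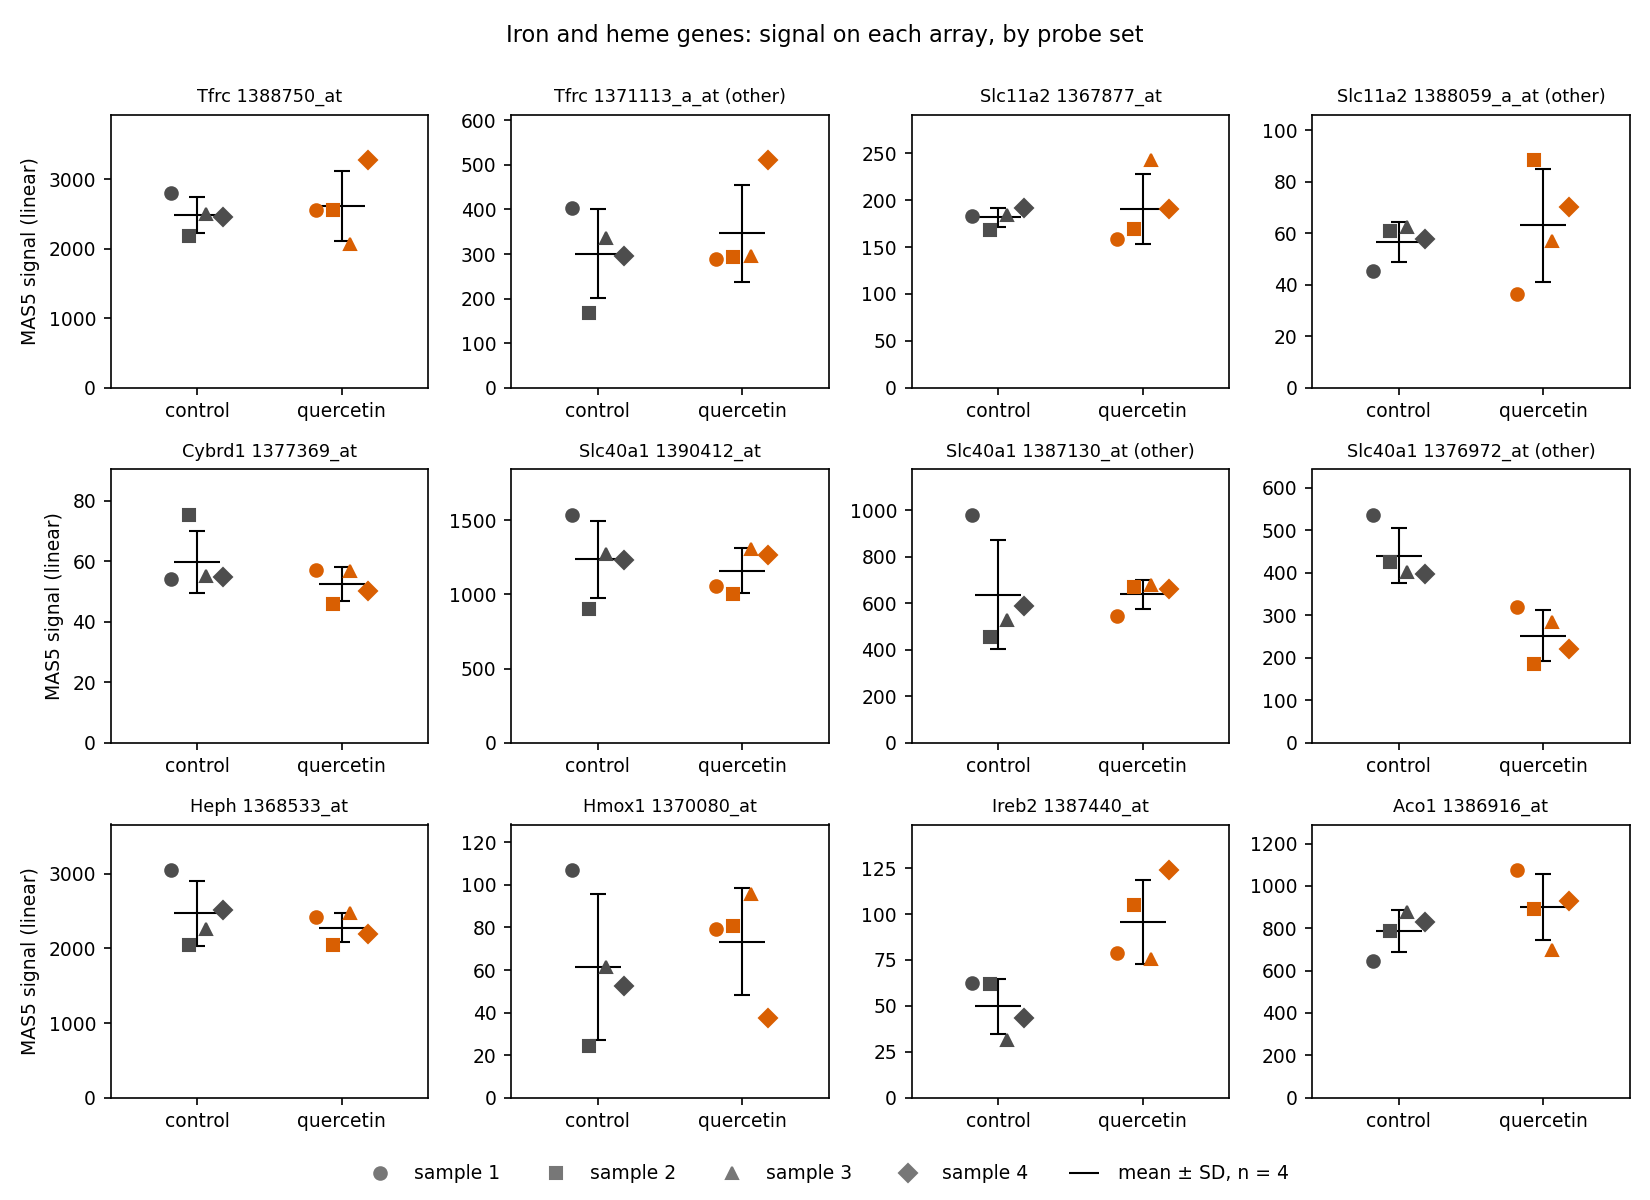
Signal of each probe set of the 8 measured genes on the 8 arrays (y axis, linear MAS5 signal from 0; x axis, diet; marker shape, sample number; bars, mean ± SD of 4 arrays). The groups are separate for Ireb2 (31.3 to 62.3 against 75.7 to 124) and for the Slc40a1 probe set 1376972_at (398 to 536 against 186 to 319), and overlap on the other 10 probe sets.

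Ireb2, the iron regulatory protein that is broken down when iron is plentiful, had the largest difference of the 8 genes. Its signal was 62.3, 62.0, 31.3 and 43.4 on control arrays 1 to 4 and 78.6, 105, 75.7 and 124 on quercetin arrays 1 to 4. Every quercetin array read above every control array, although the gap between the nearest arrays, 62.3 and 75.7, was smaller than the spread within either group. The means were 49.7 ± 15.1 (SD, n = 4) and 95.7 ± 22.7 (SD, n = 4), a difference of 0.77 (SE 0.25), or 1.71 times the control level with a 95% interval of 1.17 to 2.49. With an unadjusted p of 0.00865 and an adjusted p of 0.333, the difference did not pass limma over all probe sets. In the 8 fits that each left out 1 array it lay between 0.63 and 0.87. It was 0.78 (SE 0.252) with the GAPDH ratio as a covariate. The size depended on the pseudocount, at 0.95 with a pseudocount of 1 and 0.49 with one of 64, and the dimmest array (31.3) was just above the signal of 29.4 that the filter on the mean corresponds to. Ireb2 had 1 probe set, so no second reading of it was at hand.

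Aco1, whose product is an aconitase when it holds an iron-sulfur cluster and an RNA-binding regulator when it does not, differed less. It read 647, 786, 876 and 831 in the control group and 1075, 889, 699 and 931 in the quercetin group. Quercetin array 3 lay below 3 of the 4 control arrays, and the other 3 quercetin arrays lay above all of them. The means were 785 ± 99.1 and 899 ± 155 (SD, n = 4 each), the difference was 0.18 (SE 0.157, adjusted p = 0.72), and its interval ran from 0.898 to 1.44 times the control level. It was 0.30 without quercetin array 3 and 0.06 without control arrays 1 and 2.

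The 3 uptake genes all had differences close to 0. Tfrc, the transferrin receptor, whose message the iron regulatory proteins stabilise, read 2811, 2180.5, 2506 and 2465 in the control group and 2563, 2557, 2071 and 3279.8 in the quercetin group. The highest and the lowest of the 8 arrays, quercetin arrays 4 and 3, were both from the quercetin group. The means of 2491 ± 258 and 2618 ± 498 (SD, n = 4 each) gave a difference of 0.06 (SE 0.149, adjusted p = 0.926), with an interval of 0.833 to 1.30 times the control level. The value was -0.06 without quercetin array 4 and 0.00 without control array 2. The second Tfrc probe set, 1371113_a_at, gave 0.22 (SE 0.255, adjusted p = 0.806), with quercetin array 4 again the highest at 511, and -0.02 without control array 2. The difference between the responses of the 2 probe sets, 0.16, was within the spread (exact permutation p = 0.514).

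Markers of dividing cells, in which Tfrc is abundant, had a higher quercetin mean in 10 of 10 genes, beside 55.9% of named genes tested. Of these markers 0 passed. Control array 1 was the lowest control for each of them, so the 10 are not separate readings. Their summed signal ran from 2106 to 5339.9 in controls and from 4629 to 7423 after quercetin. Control array 1, at 2106, was the lowest of the 8 for these markers and the second highest for Tfrc. Their part in the Tfrc values was not tested.

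Slc11a2, the ferrous iron importer, read 183, 168, 184 and 192 in the control group and 159, 169, 243 and 191 in the quercetin group. The control arrays were close together, and 1 quercetin array, number 3, lay above them all. The difference was 0.05 (SE 0.171, adjusted p = 0.948), with means of 182 ± 10.2 and 191 ± 37.3 (SD, n = 4 each) and an interval of 0.801 to 1.34 times the control level. Without quercetin array 3 it was -0.06. The dimmer probe set, 1388059_a_at, gave 0.09 (SE 0.259), or -0.06 without quercetin array 2. The difference between the responses of the pair, 0.04, was within the spread (exact permutation p = 0.914). Quercetin array 3 was the highest of the 8 arrays on one and close to the control mean on the other.

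Cybrd1, the ferric reductase of the brush border, read 54.1, 75.3, 55.1 and 54.9 in the control group and 57.1, 45.8, 56.9 and 50.1 in the quercetin group. Control array 2 was high, and the other 7 arrays lay between 45.8 and 57.1. The means were 59.8 ± 10.3 and 52.5 ± 5.53 (SD, n = 4 each). The difference of -0.14 (SE 0.225, adjusted p = 0.865) shrank to -0.05 without control array 2. At this brightness the interval was wide, from 0.647 to 1.27 times the control level.

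Iron storage could be read only on probe sets that the annotation shares among several genes, so the values belong to no single gene and are not counted above. Probe set 1367565_a_at, which lists Fth1 and the pseudogene Fth1-ps5, read 23204, 34915, 23477 and 24039 in the control group and 19504, 27179.7, 24181 and 20714 in the quercetin group. Control array 2 was high, and the difference was -0.20 (SE 0.162, adjusted p = 0.711), or -0.05 without that array and -0.02 after quantile normalisation. Probe set 1367559_at, with 5 symbols including Ftl1, read 9152, 9038, 10192 and 11613 against 9608, 11645, 9127 and 9792, a difference of 0.01 (SE 0.13, adjusted p = 0.992). This last value was -0.12 without control arrays 1 and 2. On neither probe set did the difference exceed the spread between arrays.

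Iron export gave readings that disagreed within 1 gene. On its brightest probe set, 1390412_at, Slc40a1 (ferroportin, the exporter of iron from cells) read 1536, 903, 1276 and 1234 in the control group and 1057, 1004, 1309 and 1269 in the quercetin group. The quercetin values all lay inside the range of the controls. Means were 1237 ± 259 and 1159.5 ± 152 (SD, n = 4 each), with a difference of -0.08 (SE 0.166, adjusted p = 0.911), or 0.03 without control array 1. The second probe set, 1387130_at, read 979.6, 454, 526 and 587 in the control group and 546, 670.4, 678 and 662 in the quercetin group, a difference of 0.06 (SE 0.205, adjusted p = 0.944). Its sign turned without control array 2 (-0.08) and without control array 3 (-0.01), and it was 0.29 without control array 1.

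The third Slc40a1 probe set, 1376972_at, was lower in all 4 quercetin samples than in any control. It read 536, 426, 402 and 398 in the control group and 319, 186, 284 and 221 in the quercetin group. Its means were 440.4 ± 64.7 and 252 ± 60.1 (SD, n = 4 each), a difference of -0.78 (SE 0.184), or 0.581 times the control level with an interval of 0.441 to 0.765. The unadjusted p was 0.000937 and the adjusted p 0.26, so it did not pass limma. Among all probe sets tested, 3.3% lay lower in every quercetin sample. Leaving out 1 array at a time gave -0.90 to -0.66 (adjusted p 0.193 to 0.48).

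Set against the brightest probe set on the same array, 1376972_at stood at -1.49, -1.06, -1.63 and -1.60 on the control arrays and at -1.68, -2.34, -2.14 and -2.44 on the quercetin arrays, in log2 units. The shift between the diets was -0.71 (exact permutation p = 0.0286, two-sided, the smallest that 4 against 4 arrays can give). Against 1387130_at the shift was -0.85 (exact permutation p = 0.0571). The brightest 2 differed from each other by a shift of 0.14 (exact permutation p = 0.314). Over the 5 pairs of probe sets of 1 gene that were compared, the smallest adjusted p was 0.143, so none of these shifts passed. A single p at the permutation limit cannot pass over 5 pairs. The mean over the 3 probe sets was -0.27. Where the probe sets lie in the transcript is not given in the sources used here.

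**Figure D2:**
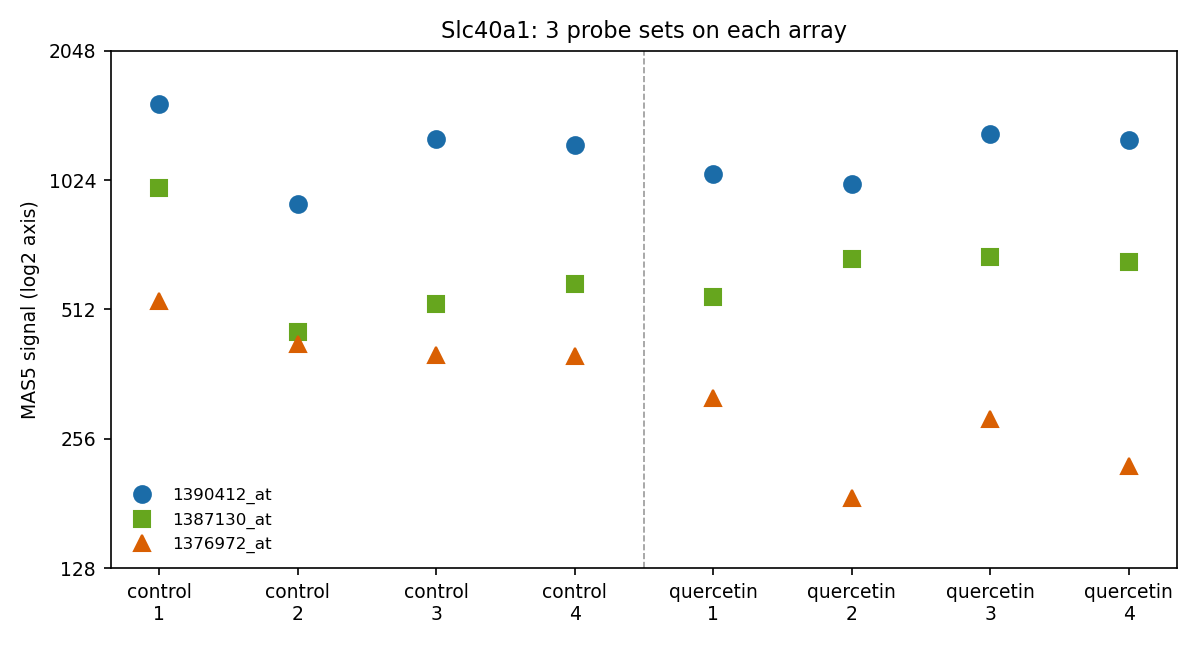
Signal of the 3 Slc40a1 probe sets on each array (y axis, MAS5 signal on a log2 axis; x axis, the arrays, with a dashed line between the diets). Probe sets 1390412_at and 1387130_at overlap between the diets, while 1376972_at is at 398 or more on each control array and at 319 or less on each quercetin array.

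Heph is the membrane ferroxidase that oxidises exported iron. It read 3049, 2049, 2256 and 2513 in the control group and 2416, 2043, 2469 and 2189 in the quercetin group. Control arrays 1 and 4 lay above every quercetin array, and the other 2 controls lay among the quercetin values. The means were 2467 ± 432 and 2279 ± 199 (SD, n = 4 each) and the difference -0.10 (SE 0.142, adjusted p = 0.84). Its interval was 0.754 to 1.15 times the control level. Without control array 1 the value was 0.00, and without control array 2 it was -0.19.

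Hmox1, the heme oxygenase that stress and heme induce, read 107, 24.5, 61.4 and 52.3 in the control group and 79.3, 80.7, 95.8 and 37.4 in the quercetin group. Control arrays 1 and 2 were the highest and the lowest of all 8. The means were 61.4 ± 34.3 and 73.3 ± 25.1 (SD, n = 4 each), and the standard error of the difference, 0.343, was the largest among the 8 genes. The difference of 0.26 (adjusted p = 0.829) became 0.52 without control array 1 and -0.01 without control array 2, and was 0.49 without quercetin array 4 and 0.14 without quercetin array 3. Its size thus rested on single arrays of both groups, and its sign on control array 2. The interval was correspondingly wide, from 0.719 to 2.01 times the control level.

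Macrophages also carry Hmox1 and Slc40a1. The summed signal of 12 macrophage markers ran from 1569.6 to 3788 in controls and from 2521 to 2839.5 after quercetin. In that sum, as for Hmox1, control array 1 was the highest and control array 2 the lowest of the 8. Most of the sum was Cd14, which read 3323 on control array 1 and 1121 on control array 2. Among the controls, array 2 was also the lowest for Csf1r (1.74) and Lyz2 (117). It was the highest control for Aif1 (83.2), Mrc1 (64.1) and C1qa (57.3), so the markers did not share that order. Of the 6 markers tested 4 were higher and 2 lower in quercetin, and 0 passed. Red cell markers summed to between 246 and 683 in controls and between 142 and 294 after quercetin, with Hbb, a hemoglobin chain, at 578 on control array 4 and at 99.8 to 244 on the other 7. The part of either cell type in the Hmox1 and Slc40a1 values was not tested.

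**Figure D3:**
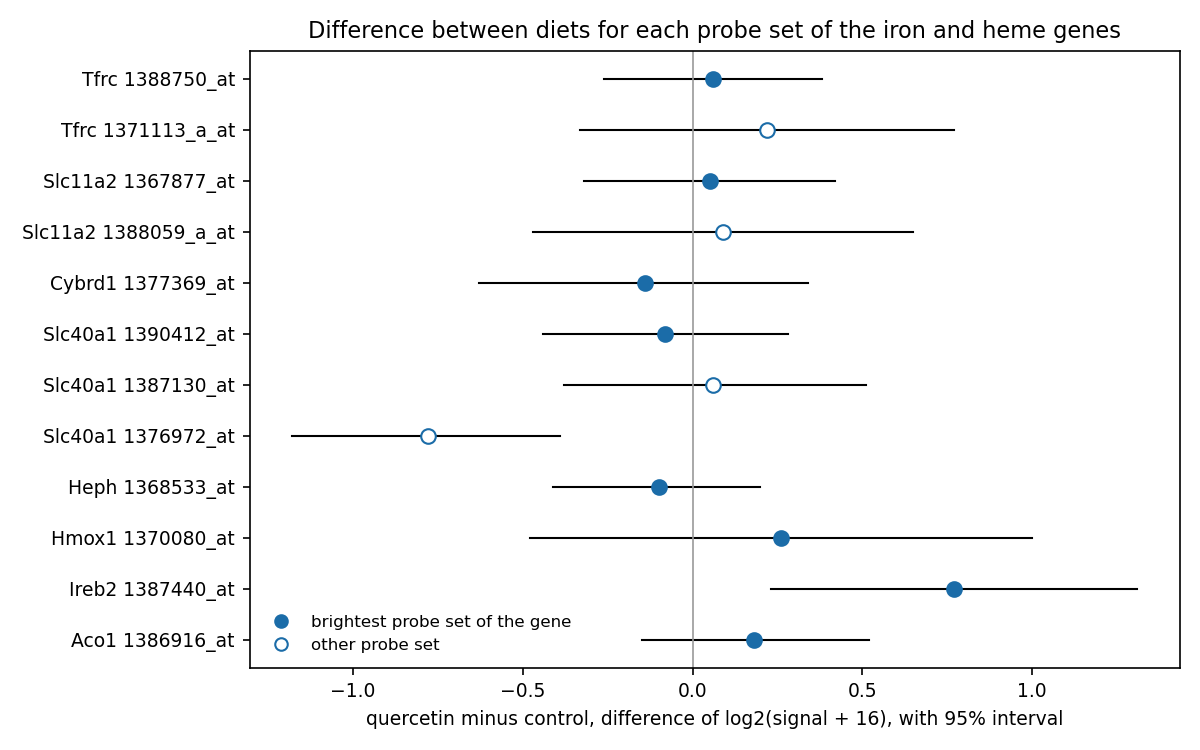
Difference between the diets for the 12 probe sets of the 8 measured genes (x axis, quercetin minus control of log2(signal + 16); points, the fitted difference; lines, its 95% interval, not adjusted for the number of probe sets). The intervals of Ireb2 (0.23 to 1.31) and of the Slc40a1 probe set 1376972_at (-1.18 to -0.39) leave out 0, and the other 10 include it.

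Beyond the 10 genes, 7 lists with 64 further genes of iron and heme handling were examined, of which 55 had a probe set of their own and 42 were bright enough to be tested. None of the 42 passed. The quercetin mean was higher for 26 and lower for 16, or 61.9% higher, beside 55.9% of named genes, and the median difference was 0.05. At an unadjusted p under 0.05 there were 5 of 42, 4 higher and 1 lower, beside 9.39% of named genes. The groups did not overlap in 4 of 42, beside 5.84%. The 2 genes of each list with the smallest p are named below.

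In heme breakdown and scavenging the quercetin mean was higher for 4 of 4 genes tested, with a median difference of 0.37 and 0 past the threshold. Blvrb, a reductase of biliverdin and flavins, read 41.4, 66.1, 97.7 and 76.4 in the control group and 95.2, 134, 128 and 137 in the quercetin group. The groups met at a single pair of arrays, control 3 and quercetin 1. The difference was 0.72 (SE 0.238, adjusted p = 0.333), and 0.43 without control arrays 1 and 2. Lrp1, the receptor that clears heme bound to hemopexin, read 223, 327, 258 and 294 against 385, 355, 366 and 403, with no overlap and a difference of 0.44 (SE 0.154, adjusted p = 0.344). A dimmer Lrp1 probe set gave -0.11 (SE 0.395). The constitutive heme oxygenase Hmox2 (0.19) and the other biliverdin reductase Blvra (0.30) had 95% intervals that included 0.

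Heme synthesis had 5 genes higher and 2 lower of 7 tested. Urod, which decarboxylates uroporphyrinogen, had means of 584 ± 49 and 708 ± 75.7 (SD, n = 4 each), with no overlap and a difference of 0.27 (SE 0.134, adjusted p = 0.505). Fech, ferrochelatase, which inserts iron into the ring, gave 0.26 (SE 0.166, adjusted p = 0.604). Ppox, which oxidises protoporphyrinogen, lay lower without overlap, at 38.7 to 52.4 in controls and 19.6 to 38.5 after quercetin. The nearest arrays, at 38.7 and 38.5, were almost equal, and the signals were near the filter signal of 29.4. The difference was -0.41 (SE 0.267, adjusted p = 0.619), with an interval that included 0.

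Of the iron and iron-sulfur genes of mitochondria 5 were higher and 3 lower of 8 tested. Slc25a28 (mitoferrin 2), an importer of iron into mitochondria, was lower on every quercetin array, with 478, 673, 435 and 498 in the control group and 362, 421, 419 and 328 in the quercetin group. The nearest arrays, at 435 and 421, were close. Its difference was -0.42 (SE 0.163, adjusted p = 0.384), or -0.29 without control array 2 and -0.28 without control arrays 1 and 2. Hscb, a cochaperone that hands over new clusters, gave 0.47 (SE 0.282, adjusted p = 0.595), or 0.16 without control array 2 and 0.03 without control arrays 1 and 2.

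Iron and heme uptake genes other than the members were higher in 6 and lower in 3 of 9 tested. Steap2, a metalloreductase, had -0.52 (SE 0.288, adjusted p = 0.548), with control array 2 at 111 and the quercetin arrays at 34.9 to 43.4, and -0.29 without control array 2. Slc39a8, a zinc transporter that also carries iron, had 0.48 (SE 0.311, adjusted p = 0.619), or 0.14 without control array 1. Among chaperones and ferritin turnover genes, 3 higher and 1 lower of 4 tested, Pcbp2, a chaperone that delivers iron, had 0.35 (SE 0.143, adjusted p = 0.398), or 0.16 without control arrays 1 and 2, while its other probe sets gave 0.01 and 0.36. Ncoa4, the receptor that sends ferritin to lysosomes, had 0.16 (SE 0.127, adjusted p = 0.688).

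The export and hepcidin list had 1 gene higher and 3 lower of 4 tested. Neo1, a coreceptor of the hepcidin pathway, had -0.19 (SE 0.165, adjusted p = 0.731), although another probe set gave 0.46. Bmp6, the iron-responsive inducer of hepcidin in the liver, had -0.25 (SE 0.235, adjusted p = 0.753), or -0.07 without control array 2, and another tested probe set gave 0.10. The hypoxia list holds factors that drive Slc11a2, Cybrd1 and Tfrc in other settings, and the proteins that mark those factors for decay. Of its 6 tested genes 2 were higher, the hydroxylases Egln1 (0.19) and Egln3, and 4 were lower, among them both factors tested, Hif1a and Epas1. Egln3, an oxygen-sensing hydroxylase that needs iron, had 0.67 (SE 0.265, adjusted p = 0.391), or 0.41 without control array 2 and 0.90 without control array 1. Vhl, which marks hypoxia-inducible factors for decay, had -0.27 (SE 0.19, adjusted p = 0.652), or -0.08 without control array 1. Epas1 (HIF-2 alpha), the hypoxia factor that acts on iron uptake in the gut, had -0.11. Hif1a, the other factor, had -0.19, and both intervals included 0. A dimmer Epas1 probe set gave 0.34 (SE 0.385). Like Hmox2, Blvra and Ppox above, Egln1, Epas1 and Hif1a were picked for mention with their values known.

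**Figure D4:**
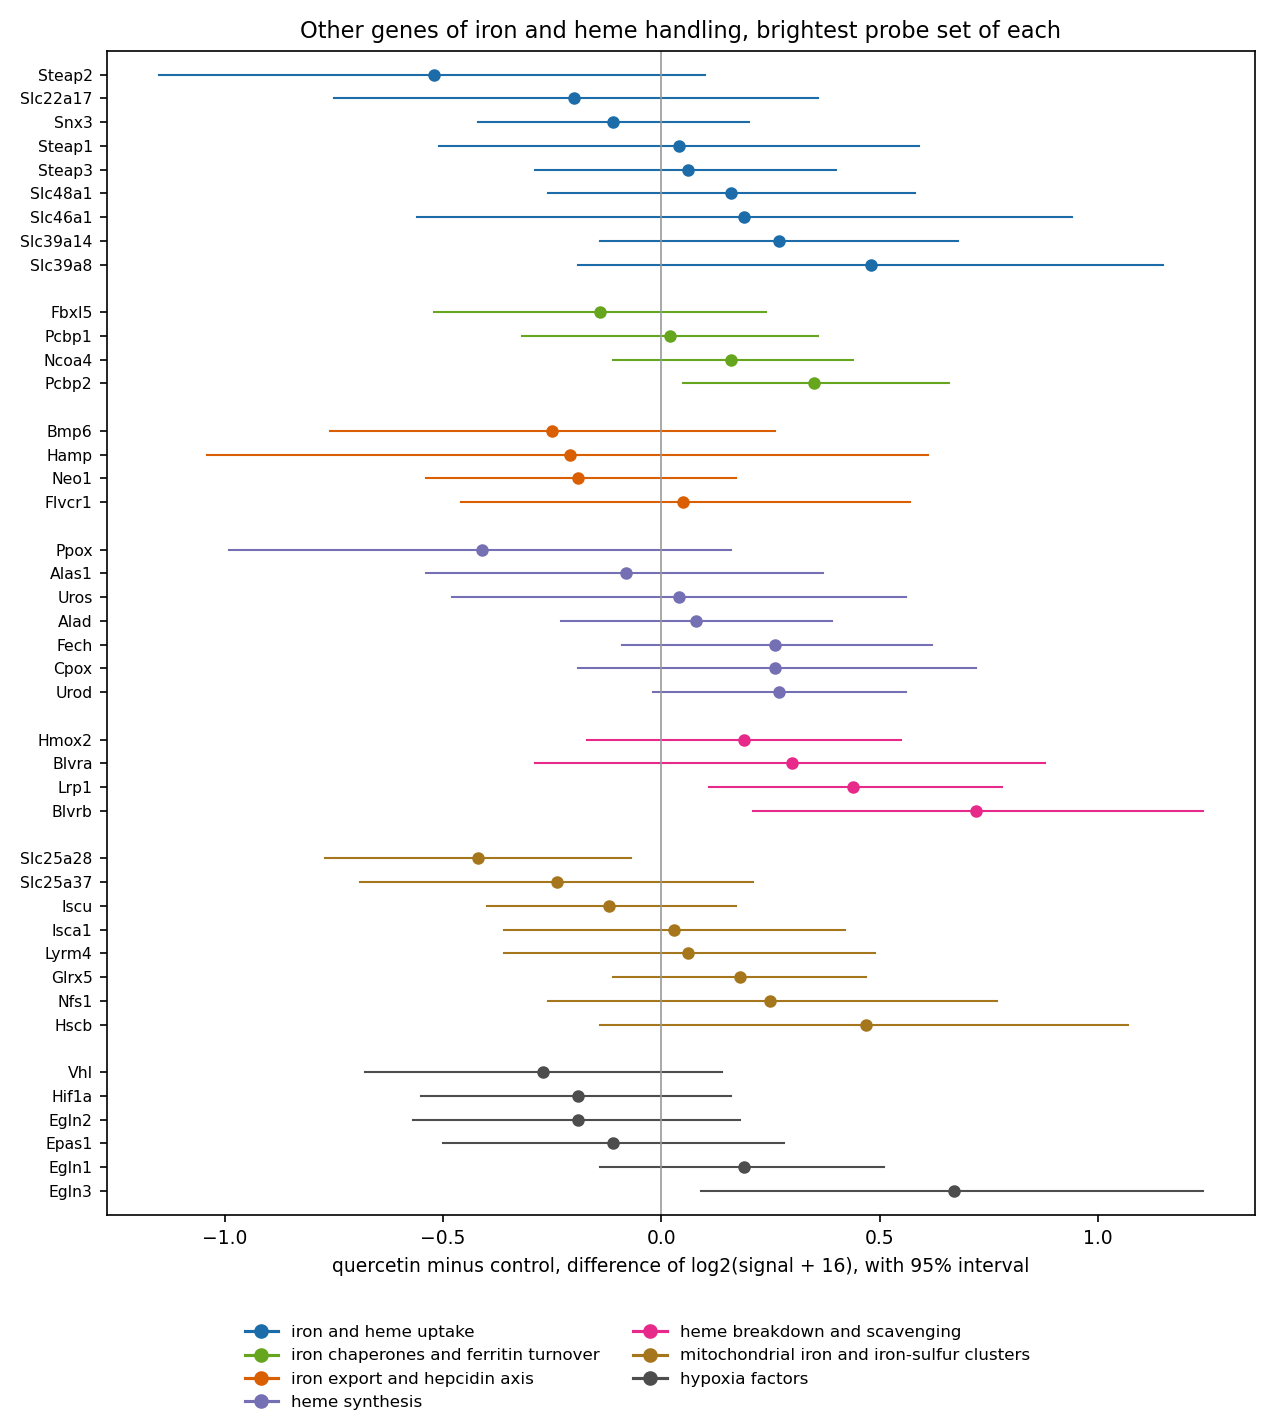
Difference between the diets for the 42 tested genes of the 7 further lists, brightest probe set of each (x axis, quercetin minus control of log2(signal + 16); points, the fitted difference; lines, its 95% interval, not adjusted for the number of genes; colours, lists). The intervals of Blvrb, Lrp1, Egln3 and Pcbp2 lie above 0, that of Slc25a28 lies below, and the other 37 include 0.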

How the data were processed

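The authors deposited 1 table of linear intensity values, 1 MAS5 signal per probe set and array, per the submitters' processing notes. In it the mean signal with the outer 2% trimmed was 200.1 on each array, so a shift shared by most transcripts would not show. Low MAS5 values are noisy. The sources used here give no other steps. Groups came from the sample titles. The table has 31099 probe sets, including 57 array controls that were not used. The upper 60% by mean log2(signal + 16) over all arrays, 18625 probe sets, were compared by limma 3.58.1 in R 4.3.3 (eBayes with trend, two-sided), with Benjamini-Hochberg adjustment over all of them and a threshold of 0.05. Precision is limited by having 4 arrays a group: a 95% interval typically (median) reached 0.481 to either side. The fit was tested on simulated data, in 10 runs with 200 changed probe sets each. At the same threshold it recovered 3.8% of simulated differences of 0.5 and 42.2% of those of 1. For differences of 1.5 and 2 it recovered 74.4% and 88.2%, and 3.75% of calls were false on average. Most simulated differences of 1 or less thus did not pass.

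Symbols came from the platform annotation, which gives 20826 probe sets a single symbol, 436 more than one and 9780 no symbol. Sequences came from RefSeq tables (GRCr8). Members and gene lists were chosen with earlier results of these data known. All member probe sets are named, and from each further list the 2 tested genes with the smallest p. Pairs of probe sets of 1 gene, chosen after the data were seen, were compared by exact permutation of arrays. The alternatives were other pseudocounts, scalings, filters, weights and variance models, the replicate number as a block, the GAPDH ratio as a covariate, averaging over the probe sets of a gene, and arrays left out.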

Additional observations from a re-analysis of the deposited data

Results flagged for a closer look

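Each diet group of 4 arrays was screened for a single array far from the other 3, over the 28 probe sets named. Of 56 such groups 4 had one, where chance gives about 2.8. In parentheses is how much of the group's range the gap to the next array takes up. Cybrd1 was high on control array 2, at 75.3 against 54.1 to 55.1 on the other controls (0.946). The Tfrc probe set 1371113_a_at stood out on quercetin array 4 with 511, the other 3 being at 289 to 296 (0.956). The Slc40a1 probe set 1387130_at was low on quercetin array 1, at 546 against 662 to 678 (0.892). The shared ferritin probe set 1367565_a_at was high on control array 2, at 34915 against 23204 to 24039 (0.913). Both of the high control readings came from the array with the highest GAPDH 3' to 5' ratio, 3.79. The part of RNA quality in them was not tested beyond the covariate fit. That fit gave Cybrd1 a difference of -0.11, against -0.14 in the main fit. For the shared ferritin probe set 1367565_a_at it gave -0.14, against -0.20.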

How the results depend on the processing

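No member and no further gene passed the threshold under any alternative run. Ireb2 kept an unadjusted p under 0.05 in the 18 alternatives that tested it (0.49 to 1.05, adjusted p 0.187 to 0.594), and the Slc40a1 probe set 1376972_at in 19 of 19 (-0.90 to -0.66, adjusted p 0.134 to 0.594). With only the upper 40% of probe sets, Ireb2 was too dim to be tested, and 0 of the 5 genes left had such a p. The probe sets that passed, 2 in all, numbered 3 with a pseudocount of 64, 1 with quantile normalisation, median centring, no filter, or eBayes without the trend, 0 without control arrays 1 and 2, and 1 to 2 with single arrays left out. Median centring moved the median of all probe sets to 0.06. The median difference of the 8 genes was -0.01 to 0.08 with single arrays left out. Signs also turned for single probe sets. For the shared ferritin probe set 1367559_at the value was -0.07 with array weights, -0.12 without control arrays 1 and 2, and -0.07 to 0.08 with single arrays left out. For the Slc40a1 probe set 1387130_at it was 0.00 with the GAPDH covariate, and -0.08 to 0.29 with single arrays left out. Leaving out single arrays also gave -0.06 to 0.16 for Tfrc, -0.02 to 0.38 for its probe set 1371113_a_at, -0.06 to 0.12 for Slc11a2, -0.06 to 0.27 for its probe set 1388059_a_at, -0.22 to 0.03 for Slc40a1, -0.19 to 0.00 for Heph and -0.01 to 0.52 for Hmox1. The cause was not tested.

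The sample titles share the numbers 1 to 4, but correlations of their deviations were 0.163 and 0.138 for numbers 2 and 4 and -0.0234 and -0.151 for numbers 1 and 3. Not every pair reached 0.1, so the numbers were not taken to pair arrays, although for 2 of the 4 control arrays the closest quercetin array had the same number. With the replicate block 1 probe set passed, and 0 members.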
